A study of Macaca mulatta with 30 samples.

Results

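Levels of 8 nuclease genes of the DNASE and RNASE families were compared among 5 tissues of the rhesus macaque (Macaca mulatta): DNASE2B, DNASE1, DNASE1L3, DNASE2, RNASE1, RNASE4, RNASE6 and ANG. They were chosen by name, as a list. The deposited table of 21292 genes held 7 of the 8, and all 7 passed the filter on low values (at least 1 TPM in at least 6 libraries), which left 13550 genes for testing. ANG (angiogenin) was not analysed here. The tissues were 3 salivary glands (parotid, submandibular, sublingual), pancreas and liver, each taken from the same 6 animals (4 females, animals 1 to 4, and 2 males, animals 5 and 6), with 1 RNA sequencing library per tissue and animal. The labels give the left gland for every salivary library except the parotid of animal 3, which is marked R. The labels give no treatment and no genotype, and the animals' ages are not given in the sources used here. The study's design sets each gland against the pancreas, and the pancreas against the liver, within animals, in a study of amylase gene expression.

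Nucleases of these families cut DNA or RNA that cells release, take up or digest. DNASE1 and DNASE1L3 are secreted enzymes that work at neutral pH, whereas DNASE2 and DNASE2B are acid nucleases of the lysosome and related compartments. The RNASE genes encode small secreted ribonucleases of the RNase A family, whose founding member, RNase A, was purified from bovine pancreas. Several members of that family are known as host defence proteins, and saliva, pancreatic juice and blood plasma all carry nuclease activity.

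Levels are given as TPM, an abundance scale corrected for transcript length on which every library sums to the same total. A rise in a few very abundant genes therefore lowers all others, and the sequencing depth behind a value is unknown. The 10 most abundant genes took 73.4 to 81.4% of all TPM in 5 of the 6 parotid libraries but 20.3 to 27.4% in the 6 liver libraries. In bulk tissue, fewer cells of a type and less RNA per cell cannot be told apart. Differences between tissues are log2 fold changes of TPM + 1 with their standard error (SE) from a limma model with tissue and animal, fitted to all 30 libraries, and a gene is said to be higher or lower by test where its adjusted p over all 13550 genes was below 0.05.

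Several libraries stood apart from the others of their tissue. In the submandibular library of animal 4, the summed level of 4 serous salivary marker genes was 1422 TPM, against 202677 to 292840 TPM in the other 5. Pancreatic acinar markers (8 genes) summed to 3701 TPM in the pancreas library of animal 4, while the other pancreas libraries held 166459 to 353966 TPM. Both libraries also had the highest sums of their tissue for markers of fat, blood, endothelium and macrophages. In the sublingual libraries of animals 1 and 4, 5 mucous gland markers summed to 33087 and 3151 TPM, against 163075 to 353911 TPM in the other 4. The parotid library of animal 6 held 98711 TPM of skeletal muscle markers, against at most 7464 TPM in the other 5. The sublingual libraries of animals 5 and 1 held 28986 and 11594 TPM of the same markers, against at most 411.7 TPM in the other 4. In the pancreas library of animal 3, islet markers summed to 128932 TPM, against at most 11992 TPM in the other 5. Results are therefore also given without the pancreas and submandibular libraries of animal 4 (called the 28-library fit) and, for the sublingual gland, without its libraries of animals 1 and 4. Leaving out each whole animal covers the libraries of animals 3, 5 and 6, and is given where it ends a call. The part these libraries play in each result was not tested beyond those fits.

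DNASE2B, an acid nuclease best known for clearing DNA from lens fibre cells, was the most abundant of the 4 DNASE genes in the salivary glands. On the TPM + 1 scale it was 24.8-fold higher in the parotid and 15.4-fold higher in the submandibular gland than in the pancreas. In the parotid its level ran from 56.6 to 280.4 TPM, with a median of 144.6 TPM (n = 6). In the submandibular gland it ran from 9.45 to 150.6 TPM, with a median of 110.4 TPM. The low value belongs to animal 4, and the other 5 submandibular libraries lay between 92.1 and 150.6 TPM. Both fold values include the libraries of animal 4. Without that animal the mean was 121.3 TPM in the submandibular gland and 3.94 TPM in the pancreas (n = 5 each), so the folds do not order the 2 glands.

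The sublingual gland was the most uneven tissue for DNASE2B. Its 6 libraries held 5.57, 26.3, 128.0, 2.69, 50.8 and 152.7 TPM in animals 1 to 6, with a median of 38.5 TPM. The low libraries were those of animals 1 and 4, the same pair in which the mucous markers were low. The pancreas held 1.67 to 7.60 TPM with a median of 4.73 TPM, and the liver 9.20 to 13.1 TPM with a median of 9.83 TPM. By these medians DNASE2B ranked 224th of 21292 genes in the parotid and 298th in the submandibular gland.

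DNASE2B was higher by test in every gland than in the pancreas. The log2 fold change was 4.63 ± 0.69 (SE) for the parotid (adjusted p = 2.68e-05) and 3.95 ± 0.69 for the submandibular gland (adjusted p = 2.55e-04). Both were higher in 6 of 6 animals, and neither gland overlapped with the pancreas. For the sublingual gland it was 2.51 ± 0.69 (adjusted p = 0.0136), higher in 4 of 6 animals, and the groups overlapped. The sublingual call was lost under scaling by a trimmed mean (2.26, adjusted p = 0.0588), without animal 2, 3, 5 or 6 (adjusted p from 0.0649 to 0.0987) and with only the 12 libraries compared (adjusted p = 0.0694), while without the sublingual libraries of animals 1 and 4 it rose to 3.73 ± 0.64 (adjusted p = 1.71e-04).

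Among the glands, DNASE2B in the parotid was not distinguishable from that in the submandibular gland (0.69 ± 0.69, adjusted p = 1). It exceeded the sublingual level by 2.12 (adjusted p = 0.0182), but without the sublingual libraries of animals 1 and 4 that difference was 0.90 ± 0.64 (adjusted p = 0.258). It also missed the threshold without animal 1 or animal 2 (adjusted p = 0.0988 and 0.0836) and with only the 12 libraries compared (adjusted p = 0.067). DNASE2B was also higher than in the liver by 3.48 in the parotid (adjusted p = 1.77e-04, 6 of 6 animals) and by 2.80 in the submandibular gland (adjusted p = 0.00174, 5 of 6 animals). The sublingual excess over the liver missed the threshold over all 30 libraries (1.36, adjusted p = 0.145) and passed it without those 2 sublingual libraries (2.59 ± 0.64, adjusted p = 0.0031). The pancreas and liver values did not overlap, with all 6 liver libraries higher, yet the difference missed the threshold (-1.15 ± 0.69, adjusted p = 0.222).

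**Figure D1:**
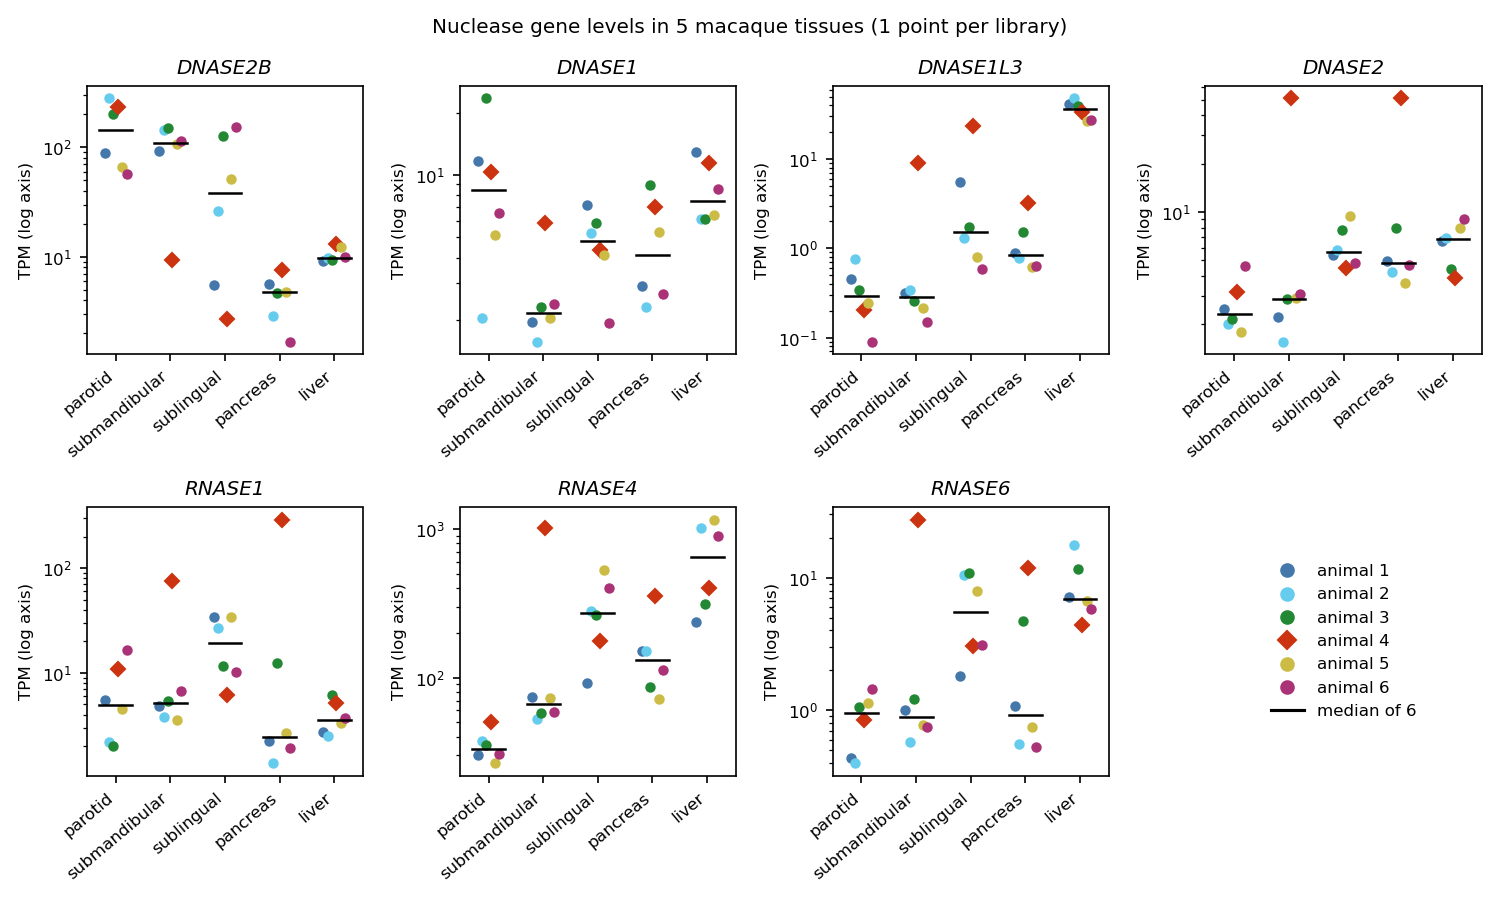
Level of each of the 7 nuclease genes in TPM (vertical log axis) in the 5 tissues, with 1 point per library coloured by animal, animal 4 as red diamonds and the median of 6 as a black line. DNASE2B is high in the parotid and submandibular glands, DNASE1L3 is above 26 TPM in every liver library, and animal 4 stands alone in the submandibular panels of all 7 genes.

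DNASE1, the main secreted neutral DNase of saliva, urine and gut fluids, was present at low levels in all 30 libraries. Its values ran from 2.05 to 23.4 TPM in the parotid (median 8.47 TPM), from 6.11 to 13.0 TPM in the liver (median 7.47 TPM) and from 1.92 to 7.19 TPM in the sublingual gland (median 4.81 TPM). The pancreas held 2.32 to 8.93 TPM (median 4.11 TPM). The submandibular gland was lowest, at 1.57 to 5.85 TPM with a median of 2.17 TPM, and its highest value again came from animal 4, the other 5 lying at or below 2.38 TPM. The level was highest in the liver in 5 animals and in the parotid in 1.

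One difference in DNASE1 passed the test. It was lower in the submandibular gland than in the liver, by -1.41 ± 0.33 (adjusted p = 0.00109), in 6 of 6 animals and without overlap. Under trimmed-mean scaling that difference was -0.57 (adjusted p = 0.146). The parotid exceeded the submandibular gland in 6 of 6 animals, by 1.36 ± 0.33, which missed the threshold over all genes (adjusted p = 0.0863) and passed it in the 28-library fit (1.5, adjusted p = 0.0353). Trimmed-mean scaling placed parotid DNASE1 above all 4 other tissues, by 1.05 against the liver (adjusted p = 0.00961), 1.40 against the pancreas (adjusted p = 0.00262), 1.59 against the sublingual gland (adjusted p = 0.00122) and 1.62 against the submandibular gland (adjusted p = 0.0119). On the TPM scale the parotid difference from the liver was -0.05 ± 0.33, so its direction depends on the scaling.

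DNASE1L3, a secreted nuclease that breaks down chromatin in the circulation and is known from macrophages, dendritic cells and the liver, was a liver gene in these data. The 6 liver libraries held 26.9 to 48.1 TPM, with a median of 36.3 TPM. All 24 libraries of the other tissues were lower. The parotid held 0.0892 to 0.763 TPM (median 0.294 TPM), and the submandibular gland 0.149 to 9.01 TPM (median 0.286 TPM), where the next value below that of animal 4 was 0.340 TPM. The sublingual gland held 0.579 to 23.5 TPM (median 1.51 TPM), with animals 4 and 1 highest at 23.5 and 5.51 TPM, and the pancreas 0.612 to 3.26 TPM (median 0.832 TPM), with animal 4 highest. The gene reached 1 TPM in 13 of the 30 libraries: 6 of liver, 4 of sublingual gland, 2 of pancreas and 1 of submandibular gland.

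The liver exceeded each other tissue without overlap. The log2 fold changes were -4.77 ± 0.41 for the parotid (adjusted p = 2.33e-10), -4.36 for the submandibular gland (adjusted p = 1.48e-09), -4.09 for the pancreas (adjusted p = 6.25e-09) and -3.27 for the sublingual gland (adjusted p = 3.14e-07), each lower in 6 of 6 animals. DNASE1L3 was also lower in the parotid and in the submandibular gland than in the sublingual gland (-1.5, adjusted p = 0.00607, and -1.09, adjusted p = 0.0476). Neither held without the sublingual libraries of animals 1 and 4 (-0.81, adjusted p = 0.0892, and -0.40, adjusted p = 0.437). The submandibular difference was also lost on leaving out any animal but 4 (adjusted p from 0.0505 to 0.273). No gland differed by test from the pancreas.

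Marker genes of liver sinusoidal endothelium were highest in the liver too, but did not follow DNASE1L3 in every library. The 7 markers in the table summed to 165.2 to 614.9 TPM in the liver and to 4.06 to 30.0 TPM in all other libraries except the submandibular and pancreas libraries of animal 4, which held 261.7 and 209.9 TPM with 9.01 and 3.26 TPM of DNASE1L3. The sublingual library of animal 4, with the highest DNASE1L3 outside the liver (23.5 TPM), had a marker sum of 23.4 TPM, within the sublingual range of 9.25 to 29.0 TPM. Macrophage markers, 9 of 9 in the table, summed to 448.3 to 922.5 TPM in the liver, 14.97 to 22.2 TPM in the parotid and 17.6 to 189.2 TPM in the sublingual gland. In the submandibular and pancreas libraries of animal 4 they summed to 1352 and 398.0 TPM, the first above every liver library. The part of either cell type in the level of DNASE1L3 was not tested.

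DNASE2, the lysosomal acid DNase that digests the DNA of engulfed cells, had the narrowest range of the 7 genes once the 2 libraries of animal 4 were set aside, 1.56 to 9.39 TPM. Its medians were 2.33 TPM in the parotid, 2.90 TPM in the submandibular gland, 4.83 TPM in the pancreas, 5.64 TPM in the sublingual gland and 6.77 TPM in the liver. The parotid ran from 1.80 to 4.59 TPM, the sublingual gland from 4.48 to 9.39 TPM and the liver from 3.89 to 9.02 TPM. The submandibular gland ran from 1.56 to 50.9 TPM and the pancreas from 3.63 to 51.0 TPM, and both upper values were those of animal 4, the next being 3.10 and 7.99 TPM.

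With all 30 libraries, limma called DNASE2 in none of the 10 tissue pairs, either on the TPM scale or under trimmed-mean scaling. In the 28-library fit it was lower in the parotid and in the submandibular gland than in the liver (-1.004, adjusted p = 5.92e-04, and -1.10, adjusted p = 4.10e-04) and than in the sublingual gland (-0.98, adjusted p = 0.00126, and -1.07, adjusted p = 8.80e-04). The submandibular gland was also lower than the pancreas (-0.77, adjusted p = 0.0254). In that fit the median change over all genes was -0.84 for parotid and -1.0005 for submandibular gland against liver. Against the sublingual gland it was -0.702 and -0.87, and for submandibular gland against pancreas -0.45. Whether DNASE2 changed beyond these shifts of all genes was not tested. Over all 30 libraries, the submandibular differences from the sublingual gland and the liver were -0.38 and -0.40, and they changed sign under trimmed-mean scaling (0.24 and 0.39).

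**Figure D2:**
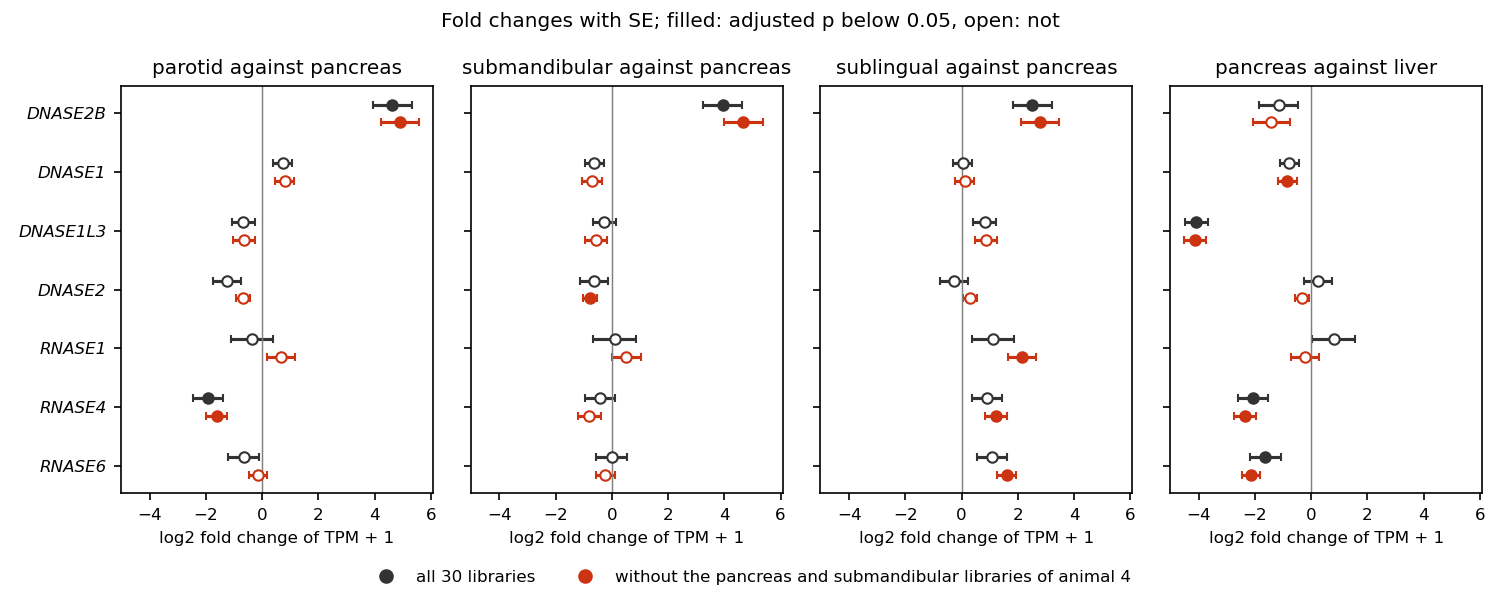
Log2 fold change of TPM + 1 with its SE (horizontal axis) for the 7 genes in the 4 comparisons the study's design puts first, from all 30 libraries (black) and without the pancreas and submandibular libraries of animal 4 (red), filled where the adjusted p was below 0.05. DNASE2B lies far to the right in the parotid and submandibular panels (4.63 and 3.95), and DNASE1L3 far to the left in the panel of pancreas against liver (-4.09).

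RNASE1, the secreted pancreatic-type ribonuclease that is also made by endothelial cells, was not abundant in the macaque pancreas libraries. It was 1.37 to 12.3 TPM in 5 of the 6, and the library of animal 4 held 291.0 TPM, which put the median at 2.45 TPM. The mean of those 5 was 4.10 ± 4.62 TPM (SD, n = 5). The sublingual gland had the highest median, 19.3 TPM, with values from 6.17 to 34.0 TPM. The parotid held 2.00 to 16.5 TPM (median 4.99 TPM), the submandibular gland 3.55 to 74.8 TPM (median 5.13 TPM) and the liver 2.499 to 6.13 TPM (median 3.52 TPM). In the submandibular gland the next value below that of animal 4 was 6.76 TPM.

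With all 30 libraries, limma called RNASE1 in none of the 10 pairs. The difference of sublingual gland from liver came nearest, at 1.92 ± 0.75 (adjusted p = 0.0526), higher in 6 of 6 animals and without overlap. In the 28-library fit the sublingual gland was higher than the pancreas (2.16, adjusted p = 0.00198), the liver (1.92, adjusted p = 0.00176), the submandibular gland (adjusted p = 0.00672) and the parotid (adjusted p = 0.0101). The pancreas differed from the liver by 0.80 (adjusted p = 0.453) with the library of animal 4 and by -0.24 (adjusted p = 0.715) without it, so 1 library set the direction.

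Endothelial markers, 5 of 5 in the table, summed to 369.2 TPM in animal 4's pancreas and 15.1 to 75.8 TPM in the other pancreas libraries. In the submandibular gland the sum was 236.1 TPM in animal 4 and 9.86 to 16.7 TPM otherwise. In the sublingual gland the sum was 9.17 to 52.6 TPM, and in the liver, where RNASE1 was low, 31.2 to 74.8 TPM. Their part in the level of RNASE1 was not tested.

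RNASE4, a secreted ribonuclease that prefers to cut after uridine, was the most abundant RNASE gene in all 30 libraries. Its medians rose from 32.9 TPM in the parotid through 65.97 TPM in the submandibular gland, 131.8 TPM in the pancreas and 271.8 TPM in the sublingual gland to 646.7 TPM in the liver. The parotid ran from 26.4 to 50.4 TPM and the submandibular gland from 52.3 to 1015 TPM, of which the top value was animal 4 and the next 73.6 TPM. The pancreas ran from 71.8 to 354.7 TPM, again with animal 4 on top and 151.7 TPM next. The sublingual gland ran from 91.6 to 529.8 TPM and the liver from 235.9 to 1152 TPM. The parotid did not overlap with any of the other tissues.

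RNASE4 was lower by test in the parotid than in the liver (-3.99 ± 0.53, adjusted p = 7.86e-07), the sublingual gland (-2.84, adjusted p = 3.44e-04) and the pancreas (-1.93, adjusted p = 0.0141), each in 6 of 6 animals. The pancreas call was lost under trimmed-mean scaling (-1.20, adjusted p = 0.0666), without animal 1 (adjusted p = 0.053) and without animal 2 (adjusted p = 0.0508). RNASE4 was also lower in the submandibular gland and in the pancreas than in the liver (-2.47, adjusted p = 4.67e-04, and -2.06, adjusted p = 0.00399). The parotid and submandibular gland, neighbours in the order, did not differ by test (-1.52, adjusted p = 0.666), although the parotid was lower in 6 of 6 animals. The pancreas and sublingual gland, and the sublingual gland and liver, missed the threshold over all 30 libraries and passed it in the 28-library fit (1.22, adjusted p = 0.0193, and -1.15, adjusted p = 0.0134). In the RefSeq annotation of assembly T2T-MMU8v2.0 the span of ANG lies inside that of RNASE4, and how the deposited values treated reads of ANG is not stated in the sources used here, so the level of RNASE4 is uncertain to that extent.

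RNASE6, known as RNase k6 and as an antimicrobial product of monocytes and neutrophils, was low in the parotid, submandibular gland and pancreas and higher in the sublingual gland and liver. The parotid held 0.398 to 1.45 TPM (median 0.953 TPM). The submandibular gland held 0.573 to 27.4 TPM (median 0.893 TPM), where all but animal 4 were at or below 1.21 TPM. The pancreas held 0.526 to 11.8 TPM (median 0.915 TPM), with animals 4 and 3 highest at 11.8 and 4.71 TPM. The sublingual gland held 1.81 to 10.8 TPM (median 5.54 TPM) and the liver 4.39 to 17.7 TPM (median 6.94 TPM), and both lay wholly above the parotid.

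RNASE6 was lower by test in the parotid than in the liver (-2.29 ± 0.54, adjusted p = 0.00103) and the sublingual gland (-1.74, adjusted p = 0.0139), in 6 of 6 animals each. It was also lower than in the liver in the submandibular gland and in the pancreas (-1.63 in both, adjusted p = 0.015 and 0.0241). The submandibular call was lost without animal 1, 2, 3 or 5 (adjusted p from 0.0547 to 0.0993), the pancreas call without animal 1, 2, 5 or 6 (adjusted p from 0.0826 to 0.153) and the sublingual one without animal 2, 3 or 5 (adjusted p from 0.0559 to 0.0682). In the 28-library fit the submandibular and pancreas differences from the liver were -2.38 (adjusted p = 1.496e-06) and -2.14 (adjusted p = 1.05e-05), and the sublingual gland was then higher than the pancreas (1.60, adjusted p = 7.43e-04) and the submandibular gland (adjusted p = 1.07e-04). RNASE6 in the sublingual gland and in the liver did not differ by test in any of these fits. The macrophage marker sum was 1352 TPM in animal 4's submandibular gland and 12.7 to 25.7 TPM in the rest of that tissue. In the pancreas it was 398.0 TPM in animal 4 and 13.0 to 89.3 TPM otherwise. The sublingual gland did not show the same pairing. There animal 4 had the highest macrophage sum, 189.2 TPM, with 3.04 TPM of RNASE6, near the low end of that tissue. The sums were 17.6 to 189.2 TPM in the sublingual gland and 448.3 to 922.5 TPM in the liver. The part of macrophages in the level of RNASE6 was not tested.

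**Figure D3:**
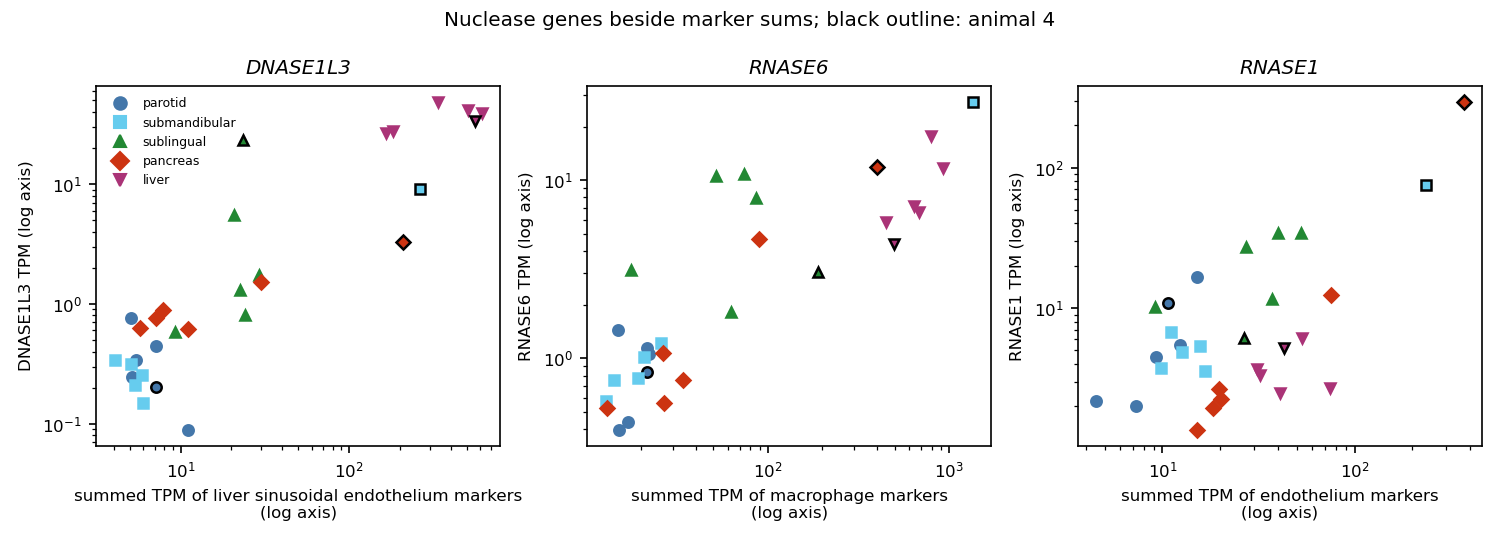
TPM of DNASE1L3, RNASE6 and RNASE1 (vertical log axes) against the summed TPM of marker genes for liver sinusoidal endothelium, macrophages and endothelium (horizontal log axes), with 1 point per library, a colour and shape per tissue and a black outline for animal 4. The outlined submandibular and pancreas libraries lie apart from the others of their tissue on both axes, at 1352 and 398.0 TPM of macrophage markers, and the liver combines high endothelial sums with low RNASE1.

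The balance within each family differed between tissues. DNASE2B made up a median of 89.3% of the summed TPM of the 4 DNASE genes in the parotid, 95.4% in the submandibular gland and 73.0% in the sublingual gland, and DNASE1L3 made up 56.7% in the liver. DNASE2B was the highest of the 4 in 6 of 6 parotid, 5 of 6 submandibular, 4 of 6 sublingual and 1 of 6 pancreas libraries. In the liver DNASE1L3 was the highest in 6 of 6.

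Calls among the 7 genes were counted by comparison, beside the share of all genes called, first for each gland against the pancreas. Nothing particular to the nucleases is read from them. Of all 13550 genes, 15.8% were called between parotid and pancreas (2.24% higher and 13.6% lower in the parotid, or 8.39% and 8.75% under trimmed-mean scaling). Of the 7 nucleases, 2 were called, DNASE2B higher and RNASE4 lower, with a median log2 fold change of -0.66 against -0.48 over all genes. The 28-library fit also called 2, against 19.3% of all genes. Between submandibular gland and pancreas 9.71% of all genes were called (2.25% higher and 7.46% lower, or 8.13% and 8% under trimmed-mean scaling) and 1 nuclease, DNASE2B. The 28-library fit called 2, with DNASE2 added, against 29.4% of all genes. The nuclease median was -0.27 against -0.33 over all genes. Between sublingual gland and pancreas 13.9% of all genes were called (10.4% higher and 3.51% lower, or 11.3% and 10.2% under trimmed-mean scaling) and 1 nuclease, DNASE2B, and in the 28-library fit 4, all higher, against 33.6% of all genes. Their median was 0.91 against 0.23 over all genes.

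The liver comparisons were counted next. Between pancreas and liver 30.4% of all genes were called (6.76% higher and 23.6% lower, or 16.6% and 20.1% under trimmed-mean scaling) and 3 nucleases, DNASE1L3, RNASE4 and RNASE6, all lower in the pancreas. Between parotid and liver it was 58% of all genes (4.61% higher and 53.4% lower, or 21.2% and 22.6%) and 4 nucleases, with DNASE2B higher and DNASE1L3, RNASE4 and RNASE6 lower. Between submandibular gland and liver it was 50.7% of all genes (5.68% higher and 45.1% lower, or 22.2% and 24.6%) and 5 nucleases, the same 4 and DNASE1, which was lower. Between sublingual gland and liver it was 31.5% of all genes (12.8% higher and 18.7% lower, or 21.9% and 22.5%) and 1 nuclease, DNASE1L3. The nuclease medians were -1.15, -1.004, -1.41 and -0.55 in that order, against -0.36, -0.84, -0.70 and -0.10 over all genes. In the 28-library fit the nucleases called were 4, 5, 6 and 3, against 48.8%, 68.2%, 72.3% and 42.1% of all genes. Nothing particular to the nucleases is read from these counts.

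Between the glands, the parotid and submandibular gland differed in 0.347% of all genes (0.133% higher and 0.214% lower, or 0.28% and 0.428% under trimmed-mean scaling). By limma 0 nucleases were called there, and in the 28-library fit 1 was called, DNASE1, against 0.583% of all genes. Between parotid and sublingual gland 41.5% of all genes were called (0.893% higher and 40.6% lower, or 8.23% and 9.56%) and 4 nucleases, DNASE2B higher in the parotid and DNASE1L3, RNASE4 and RNASE6 lower. The 28-library fit called 6, against 58.4% of all genes. Between submandibular and sublingual gland 27.9% of all genes were called (0.753% higher and 27.2% lower, or 6.49% and 8.53%) and 1 nuclease, DNASE1L3. In the 28-library fit all 7 nucleases were called in that pair, where 66.7% of all genes were. DNASE2B was then higher in the submandibular gland and the other 6 higher in the sublingual gland.

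The other RNase A family genes of the table gave a different order of tissues. RNASE8, RNASE7 and RNASE13 had their highest medians in the parotid, at 25.5, 17.6 and 7.91 TPM, against at most 0.643 TPM in the pancreas. RNASE8 was also present in the submandibular gland, with a median of 8.73 TPM and up to 26.3 TPM. RNASE7 reached 124.8 and 145.4 TPM in the sublingual libraries of animals 1 and 4, above its highest parotid value of 22.6 TPM. RNASE7 is an antimicrobial ribonuclease of skin and other epithelia, and RNASE8 is its close paralog. RNASE8 and RNASE7 were higher by test in the parotid than in the pancreas, in 6 of 6 animals and without overlap, by 3.81 ± 0.45 (adjusted p = 9.14e-07) and by 3.13 ± 0.81 (adjusted p = 0.00913). RNASE13 held 1.49 to 18.0 TPM in the parotid, where all 6 libraries lay above every library of the other tissues. Of the 8 libraries in which it reached 1 TPM, 6 were parotid, so it passed the filter only through the tissue where it is high, and no test of it is given.

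RNASE2, the eosinophil-derived neurotoxin, was instead highest in the pancreas. Its pancreas values ran from 0.753 to 32.4 TPM with a median of 4.48 TPM, against a median of at most 0.281 TPM in each other tissue. The highest pancreas value was that of animal 4. The pancreas gave 5 of the 8 libraries in which RNASE2 reached 1 TPM and so brought it past the filter, and no test of it is given either. Of 9 such genes searched, 7 were in the table and 5 passed the filter. RNASE2 and RNASE3, like RNASE7 and RNASE8, are near copies of each other, and the sources used here do not say how reads were divided between them, so single values are uncertain.

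Most of these genes stand in a row on 1 chromosome. In T2T-MMU8v2.0 the order by symbol, taken from RNASE10 to RNASE8, is RNASE10, RNASE9, RNASE12, RNASE4 with ANG, RNASE6, RNASE1, RNASE3, RNASE2, RNASE13 and RNASE8, and 9 of these 11 were in the table. RNASE7 is not among them and is left out of this description. The genes of that row did not all peak in the same tissue, although some neighbours did. By their medians, RNASE10 (10.8 TPM), RNASE4 and RNASE6 were highest in the liver, RNASE1 in the sublingual gland, RNASE2 in the pancreas, and RNASE13 and RNASE8 in the parotid. RNASE9 was listed at 0 in all 30 libraries.

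**Figure D4:**
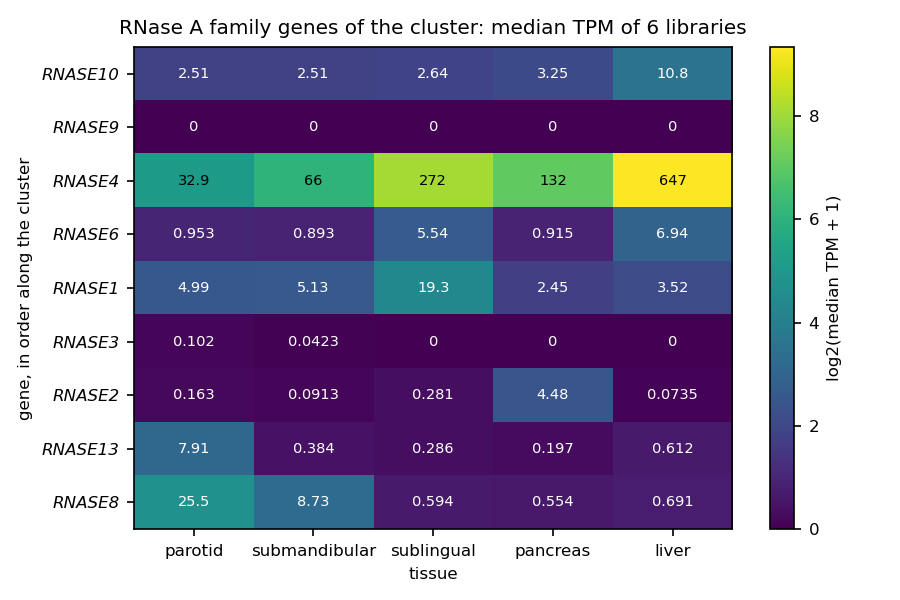
Median TPM of 6 libraries (number in each cell, colour as log2 of the median TPM + 1) for the 9 RNase A family genes from RNASE10 to RNASE8 that the table holds, in their order along the chromosome, by tissue. RNASE7 (parotid median 17.6 TPM) is not shown. The highest median moves from liver for RNASE4 (646.7 TPM) to sublingual gland for RNASE1 (19.3 TPM), pancreas for RNASE2 (4.48 TPM) and parotid for RNASE8 (25.5 TPM).

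Other secreted, endolysosomal and intracellular nucleases were counted in the same way. Of 5 tested further secreted or endolysosomal nucleases, 4 were lower in the parotid than in the sublingual gland and 0 higher, and 3 were lower than in the liver and 0 higher (2 lower and 0 higher in both under trimmed-mean scaling). RNASET2, an acid ribonuclease of lysosomes, had medians of 8.52 TPM in the parotid, 35.6 TPM in the sublingual gland and 39.7 TPM in the liver (parotid against sublingual -1.97, adjusted p = 9.06e-04). DNASE1L2, a DNASE1-like nuclease of the epidermis, had medians of 0.959 TPM in the parotid, 7.73 TPM in the sublingual gland and 7.62 TPM in the liver (parotid against sublingual -1.73, adjusted p = 8.86e-05). Of all genes, 40.6% were lower in the parotid than in the sublingual gland and 53.4% lower than in the liver. Under trimmed-mean scaling these shares were 9.56% and 22.6%. Whether the counts of this list differ from them was not tested.

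Of 12 intracellular nucleases, 5 were lower and 0 higher in the parotid than in the sublingual gland, and 6 were lower and 0 higher than in the liver (4 lower and 1 higher, and 3 lower and 1 higher, under trimmed-mean scaling). On the TPM scale these shares lie near the 40.6% and 53.4% of all genes that were lower. Under trimmed-mean scaling 9.56% of all genes were lower and 8.23% higher in the parotid than in the sublingual gland. Against the liver 22.6% were lower and 21.2% higher. Whether the counts of this list differ from those shares was not tested. RNASEH2C, a subunit of the enzyme that removes RNA from RNA-DNA hybrids, had medians of 19.3 TPM in the parotid, 21.2 TPM in the submandibular gland, 78.2 TPM in the pancreas and 146.4 TPM in the liver. It was lower in the parotid than in the pancreas by -1.68 (adjusted p = 0.00176). The ribonuclease inhibitor gene RNH1, which binds RNase A family enzymes in the cytosol, was not analysed here. Of 2 nucleic acid sensors tested, TLR9, which senses DNA in endosomes, was higher in the parotid and in the sublingual gland than in the liver (1.47, adjusted p = 0.0286, and 1.90, adjusted p = 0.0105), and TMEM173, an adaptor of cytosolic DNA sensing, was called in no pair with all 30 libraries. In the 28-library fit both sensors were called in 3 pairs. Both were higher in the sublingual gland than in the pancreas and than in the submandibular gland. Of all genes, 33.6% and 66.7% were called in those pairs. In the parotid against the liver 1 sensor was higher and 1 lower, where 68.2% of all genes were called.

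Genes that take nucleotides further apart were spread over the tissues. ENPP3, a cell surface enzyme that hydrolyses extracellular nucleotides, had a median of 184.2 TPM in the sublingual gland and at most 2.55 TPM in the other 4 tissues. It was higher in the sublingual gland than in the pancreas by 5.53 ± 0.62 (adjusted p = 3.39e-07), in 6 of 6 animals and without overlap, although the lowest sublingual value was 7.40 TPM, in animal 4, and the highest 594.5 TPM, in animal 3. PNP, which cleaves purine nucleosides, and NT5E, which makes adenosine outside cells, were liver genes, with medians of 19.1 and 12.7 TPM there and 1.44 and 2.03 TPM in the pancreas (-2.70, adjusted p = 4.17e-05, and -2.26, adjusted p = 9.56e-06, for pancreas against liver). ACPP, a phosphatase, was higher in the parotid than in the pancreas (1.35, adjusted p = 0.00136), from a median of 1.92 TPM against 0.261 TPM. Of the 10 genes of this list that were tested, 2 were called between parotid and pancreas, 1 each way, and 4 between pancreas and liver, 1 higher and 3 lower, where 15.8% and 30.4% of all genes were called.

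For each nuclease, the gene with the most similar profile of log2(TPM + 1) over the 30 libraries was looked up among all tested genes with a symbol. These are correlations over libraries that share tissues and animals, given as a description. The closest to DNASE2B was CA6, the carbonic anhydrase secreted into saliva (Pearson r = 0.93), followed by SLC25A48 (0.92) and LMX1B (0.91). RNASE4 was closest to ERP29, a protein of the endoplasmic reticulum (0.97), then GALK2 (0.94) and DHRSX (0.93). RNASE6 was closest to GPSM3 (0.95), to PLD3, a lysosomal exonuclease (0.94), and to NCF1, a subunit of the phagocyte oxidase (0.93).

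DNASE1L3 was closest to RTL5 (0.97), ACAA1 (0.96) and ABCA6 (0.96), and DNASE2 to PRXL2A (0.96), MCRIP1 (0.95) and ILK (0.95). RNASE1 was closest to ANKRD13B (0.90), ME3 (0.89) and NT5DC1 (0.89). The nearest profile to that of DNASE1 was ADAMTS7 at 0.75, then CXCL9 and SMPD4, at 0.67 and 0.66, the lowest of the 7 sets. Over the 28 libraries CA6, ERP29, GPSM3 and ADAMTS7 were again the closest genes to DNASE2B, RNASE4, RNASE6 and DNASE1, whereas DNASE2 was then closest to CTNNB1 (0.94), RNASE1 to THAP4 (0.85) and DNASE1L3 to HSD17B2 (0.98).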

How the data were processed

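The authors deposited 1 table of TPM values from kallisto, per the name of that table, with 1 column per library. Column sums were 999998 to 1000001, so the depth cannot be read from the table, and values carry no counting interval. The submitters' processing notes list FastQC, MultiQC, cutadapt, HISAT2, kallisto, SAMtools, featureCounts and DESeq2 without roles or versions. The transcriptome and genome build are not given in the sources used here, so no coordinates or sequences are printed. Per the labels' protocols, RNA came from frozen tissue sections and paired reads from an Illumina HiSeq.

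No count test was used, as the values are TPM. limma 3.58.1 in R 4.3.3 was run on log2(TPM + 1), which understates changes of low genes, with tissue and animal as terms, all 30 libraries and a mean-variance trend. Genes needed at least 1 TPM in at least 6 libraries (13550 of 21292). Two-sided p-values were adjusted (Benjamini-Hochberg) over all tested genes in each of 10 tissue pairs, with a threshold of 0.05. The script was tested on simulated data. Animal was a block term, since the labels name the same 6 animals in every tissue. Deviations from tissue means correlated by 0.161 on average within an animal (-0.304 to 0.7 over 60 library pairs) and by -0.0186 between animals. The highest correlation of 2 libraries was 0.979 and 0 pairs were identical. No column was left unused (0).

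The alternatives were no animal block, only the 12 libraries compared, trimmed-mean scaling (30% of log ratios and 5% of mean levels trimmed), a pseudocount of 0.1, no filter, a filter of 5 TPM, each animal left out, and the libraries that stood apart left out. Leaving out the sublingual libraries of animals 1 and 4 was chosen after seeing the data. The genes, the lists of related nucleases and the marker lists were chosen with earlier results of these data known. All 8 genes are named, with at most 5 related nucleases per comparison among those called, largest change first, except where levels across tissues are described, and the 3 genes of most similar profile. RNASET2, DNASE1L2, ACPP and TLR9 fall outside that limit and were chosen as examples of their lists after their values were seen. Gene order came from a RefSeq table of T2T-MMU8v2.0, in which 90.1% of the table's gene names were found, including all 8 nucleases.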

Additional observations from a re-analysis of the deposited data

Results flagged for a closer look

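On the log2(TPM + 1) scale, the pancreas and submandibular libraries of animal 4 account for every single-library deviation flagged among the 7 nucleases. Each of 35 sets of 6 libraries (7 genes in 5 tissues) was examined on that scale. The gap between the highest or lowest library and its neighbour was compared with the whole range. In 9 sets it was beyond the 95% limit, where chance gives about 1.75. All 9 were the submandibular or the pancreas library of animal 4, so they are not 9 independent events. Gaps on the TPM scale were not compared. High single values such as DNASE1L3 in the sublingual library of animal 4 (23.5 TPM, next 5.51 TPM) were therefore not flagged.

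In the submandibular gland, DNASE2B was 9.45 TPM in that library and at least 92.1 TPM in the others. DNASE1 was 5.85 TPM against at most 2.38, DNASE1L3 9.01 TPM against at most 0.340, and DNASE2 50.9 TPM against at most 3.10. RNASE1 was 74.8 TPM against at most 6.76, RNASE4 1015 TPM against at most 73.6, and RNASE6 27.4 TPM against at most 1.21. In the pancreas, DNASE2 was 51.0 TPM against at most 7.99 and RNASE1 291.0 TPM against at most 12.3. The same libraries held 7126 and 13853 TPM of adipocyte markers (next 125.9 and 1658 TPM) and 10899 and 13941 TPM of blood markers (next 216.0 and 467.9 TPM). The part of fat, blood or other cells in these values was not tested.

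RNASE6 moved in opposite directions in the 2 sexes in 2 of 70 comparisons examined. For parotid against pancreas, the mean log2 fold change was -1.24 in the 4 females, lower in each of them, and 0.49 in the 2 males, higher in each. For parotid against submandibular gland it was -1.18 in the females and 0.38 in the males. The difference between the sexes was not tested, both comparisons use the same parotid libraries, and the female values include the libraries of animal 4. With only 4 females and 2 males, such a split of signs can arise by chance in some of 70 comparisons. No effect of sex is read from it.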

How the results depend on the processing

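Of 70 tests (7 genes in 10 tissue pairs), 22 passed with all 30 libraries. The number was 21 with no replicate block (all 21 shared), 22 with only the 12 libraries compared (18 shared), 24 under trimmed-mean scaling (18 shared), 23 with a pseudocount of 0.1, 21 without a filter, 23 with a filter of 5 TPM, 40 without the 2 libraries of animal 4 (all 22 shared) and 24 without the sublingual libraries of animals 1 and 4 (19 shared). Leaving out animals 1 to 6 in turn gave 17, 16, 19, 40, 17 and 19. Calls over all genes moved too. Without the 2 libraries of animal 4 the share of all genes called rose in all 10 pairs. It rose from 0.347% to 0.583% for parotid against submandibular gland, and from 27.9% to 66.7% for submandibular against sublingual gland. Nothing particular to the nucleases is read from these counts.

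Without the replicate block the submandibular against sublingual count went from 1 to 0 (DNASE1L3, adjusted p = 0.113), and the block changed no other call. That count was also 0 with the 12 libraries compared, under trimmed-mean scaling and without a filter, 7 without the 2 libraries of animal 4 (also without parotid of animal 6) and 2 without the 2 sublingual libraries. Sublingual against pancreas went from 1 to 0 with 12 libraries and under trimmed-mean scaling, and to 4 without the libraries of animal 4. Sublingual against liver went from 1 to 3 with 12 libraries, without the libraries of animal 4 and without the 2 sublingual libraries, and to 2 under trimmed-mean scaling, a pseudocount of 0.1 and a filter of 5 TPM. Submandibular against pancreas went from 1 to 2 without the libraries of animal 4, and parotid against submandibular from 0 to 1 there and under trimmed-mean scaling. Calls over all 13550 genes moved as well. With all 30 libraries, 12 libraries, trimmed-mean scaling and without the libraries of animal 4, submandibular against sublingual gland gave 3787, 666, 2036 and 9035. In that order, sublingual gland gave 1887, 1049, 2916 and 4551 against pancreas, and 4273, 4582, 6022 and 5710 against liver. The cause of these shifts was not tested.

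Leaving out 1 animal gave 1 to 3 calls for parotid against pancreas, 1 to 2 for submandibular against pancreas, 0 to 4 for sublingual against pancreas, 2 to 4 for pancreas against liver, 0 to 0 for parotid against submandibular, 3 to 6 for parotid against sublingual, 0 to 7 for submandibular against sublingual, 4 to 5 for parotid against liver, 4 to 6 for submandibular against liver and 1 to 4 for sublingual against liver. In the same order, calls over all 13550 genes were 947 to 2728, 623 to 3946, 1104 to 4277, 2817 to 6575 and 5 to 86. From parotid against sublingual on, they were 2854 to 8090, 1281 to 8865, 6288 to 9119, 4908 to 9905 and 3339 to 5214.

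A change of sign was looked for in 42 results, and 4 of these reversed under an alternative. The set held the 40 results called without the 2 libraries of animal 4, which include all those called with all libraries. The other 2, DNASE1 in parotid against liver and RNASE1 in pancreas against liver, passed in neither fit and were added by choice. DNASE1 was added as a result already seen to reverse. Both are among the 4, so 4 of 42 is not a rate of reversal. The other results given were not checked in this way. DNASE2B in parotid against submandibular gland is 1 of those not checked. It was 0.69 with all libraries and 0.22 without the 2 libraries of animal 4. It was higher in the parotid in 3 of 6 animals, so its direction is not settled. DNASE1 in parotid against liver, -0.05 with all libraries, became 1.05 under trimmed-mean scaling and 0.18 without animal 2 (-0.42 to 0.18 over the animals left out). DNASE2 in submandibular against sublingual gland and against liver became 0.24 and 0.39 under trimmed-mean scaling. RNASE1 in pancreas against liver became -0.24 without the 2 libraries of animal 4, -0.22 when the parotid library of animal 6 was left out as well, and -0.16 without animal 4 (-0.16 to 1.09 over the 6 animals left out in turn). Depth is unknown, so levels below 1 TPM, such as DNASE1L3 in the parotid, cannot be given a counting error.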

Other observations

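The sublingual libraries of animals 1 and 4, in which DNASE2B was lowest (5.57 and 2.69 TPM), differed from the other 4 in several related nucleases. RNASE7 was 124.8 and 145.4 TPM there and at most 1.65 TPM in the other 4. TREX2, a 3-prime exonuclease known from keratinocytes, was 184.4 and 959.4 TPM against 4.30 to 14.3 TPM, and ENDOU, an endoribonuclease, was 15.5 and 29.8 TPM against at most 1.95 TPM. TREX1, which degrades cytosolic DNA, was 9.03 and 11.5 TPM against at most 4.74 TPM. The neutrophil list, which includes S100A8 and S100A9, genes that stratified epithelia also express, summed to 14747 and 34611 TPM in these libraries and to at most 215.0 TPM in the other 4. These libraries were picked out after their values were seen, and no test was made.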
